A study of Mus musculus with 4 samples.

Results

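Adipogenic genes were examined in mesenchymal stromal cells (MSCs) of adult mouse bone marrow. The 10 genes were taken by name from the table of 56980 listed genes and were split by role. The early members were the 6 genes Cebpa, Cebpb, Cebpd, Pparg, Lpl and Adipoq, and the mature lipid-droplet members were the 4 genes Plin1, Cidec, Fabp4 and Cd36. Each of the 4 RNA-seq libraries was made from 100 MSCs sorted from the marrow of 1 wild-type male mouse, 14 weeks old, of an in-house inbred C57BL/6J strain. The sort kept CD45- Ter119- CD31- CD51+ PDGFRa+ Sca1- cells, a gate that leaves out blood cells and endothelium. The 4 libraries form 1 group without a control group, so values were compared between genes and between mice. In bulk libraries of this kind, fewer cells of a type and less RNA per cell cannot be told apart.

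Fat cells arise from stromal precursors through a cascade of transcription factors. C/EBPb and C/EBPd act early and induce C/EBPa and PPARg, which then maintain each other and switch on the genes of fatty-acid uptake and storage. In bone marrow, the reticular stromal cells that make CXCL12 are known to express the adipokine adiponectin (Adipoq) and lipoprotein lipase (Lpl) without carrying a large lipid droplet. Perilipin 1 (Plin1) and CIDEC coat and enlarge the lipid droplet of mature fat cells, FABP4 carries fatty acids in the cytosol, and CD36 takes them up at the cell surface.

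The libraries held between 22738604 and 43545349 counts on genes, and between 16109 and 18907 genes had a count. Counts were converted to TPM, a level corrected for gene length, which divides each count by the length of the merged exons of the gene and scales each library to the same total. The stromal label was checked against markers. All 6 genes of the reticular niche list, with Cxcl12, Lepr and Kitl among them, exceeded 1 TPM in each of the 4 mice, as did the sort antigens Pdgfra and Itgav. So did the 4 osteoblast markers, with a summed level between 77792 and 168024 TPM, most of it Bglap (osteocalcin). For Ly6a, which encodes the excluded antigen Sca1, mice 2 and 4 had 120 and 144 counts and mice 1 and 3 had 1 and 0. Erythroid genes summed to 4980, 35.0, 1708 and 358 TPM in mice 1, 2, 3 and 4. Of the macrophage markers, Adgre1, Csf1r and C1qa were at 0 in all libraries, while C1qb and Cd68 had 176 and 144 counts in mouse 3. Of the endothelial markers, Cdh5 and Kdr were at 0 in all libraries, while Tek had 58 and 42 counts in mice 2 and 4. Of the 5 neutrophil markers 3 had a median above 1 TPM, with a summed level between 5.96 and 39.6 TPM.

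Stretches of 3 promoters are printed, as Adipoq was the highest of the 10 genes, Plin1 had no count at all, and Pparg was counted mainly in 1 mouse. Each stretch runs from 250 bases before to 50 bases after an annotated RefSeq start in GRCm38.p6, in the direction of transcription. Capitals mark matches to TTNNGCAA, the core that C/EBP proteins bind, on either strand. A match on the opposite strand is printed as its reverse complement. The Pparg stretch is the most downstream of its 3 listed starts and the only 1 of them with a match.

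Adipoq, chr16:23146286-23146585, plus strand: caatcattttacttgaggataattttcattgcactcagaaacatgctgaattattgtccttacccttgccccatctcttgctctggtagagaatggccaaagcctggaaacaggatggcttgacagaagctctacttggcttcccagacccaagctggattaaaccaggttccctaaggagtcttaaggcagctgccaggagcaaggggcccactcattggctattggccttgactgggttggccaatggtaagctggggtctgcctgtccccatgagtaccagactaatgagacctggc
Plin1, chr7:79732727-79733026, minus strand: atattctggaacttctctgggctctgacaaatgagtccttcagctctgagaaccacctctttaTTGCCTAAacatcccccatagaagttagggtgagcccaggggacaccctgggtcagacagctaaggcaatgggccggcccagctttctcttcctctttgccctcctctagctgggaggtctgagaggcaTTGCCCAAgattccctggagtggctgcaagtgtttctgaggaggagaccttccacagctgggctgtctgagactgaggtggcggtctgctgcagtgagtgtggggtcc
Pparg, chr6:115421816-115422115, plus strand: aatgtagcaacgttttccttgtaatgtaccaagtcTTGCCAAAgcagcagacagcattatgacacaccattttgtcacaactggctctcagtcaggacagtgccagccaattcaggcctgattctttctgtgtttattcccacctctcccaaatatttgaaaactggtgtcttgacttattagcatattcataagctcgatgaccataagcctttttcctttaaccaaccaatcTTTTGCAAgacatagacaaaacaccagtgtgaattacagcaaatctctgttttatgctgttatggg

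The Adipoq promoter held no such match. Whether matches and levels go together was not tested. The promoter of Plin1 held a pair of matches, at -187 to -180 and -58 to -51 from its start, both on the opposite strand. In the Pparg promoter 1 match lay at -215 to -208 on the opposite strand and another at -16 to -9 on the transcribed strand. Promoters were listed for 7 of the 10 members, as 10 promoters in all. Cebpd, Lpl and Fabp4 were among the genes without an entry. TTNNGCAA occurred in 3 of the 10 member promoters, those of Plin1, the last Pparg start and 1 of the Cidec starts, and in 10.8% of all 32851 promoters of the same length. A match describes letters in this window and says nothing of whether a factor was bound. The palindromic form TTGCGCAA, a subset of the same pattern, was found in 0 of the 10 and in 0.183% of all promoters.

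A TATAAA sequence was present in 3 of the 10 member promoters and in 13.6% of all promoters. It lay at -30 to -25 in Cebpa, at -29 to -24 on the opposite strand at the second Pparg start, and at 21 to 26, past the start, in Cebpb. The site of PPARg with its partner RXR is AGGTCA repeated with 1 base between. No member promoter held this repeat with at most 1 mismatch, a form present in 0.554% of all promoters. With at most 2 mismatches it was found in 1 member promoter, that of Cd36, at -63 to -51 on the opposite strand, and in 3.86% of all promoters. The positions of these matches are drawn in the map of the 10 promoters.

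**Figure D1:**
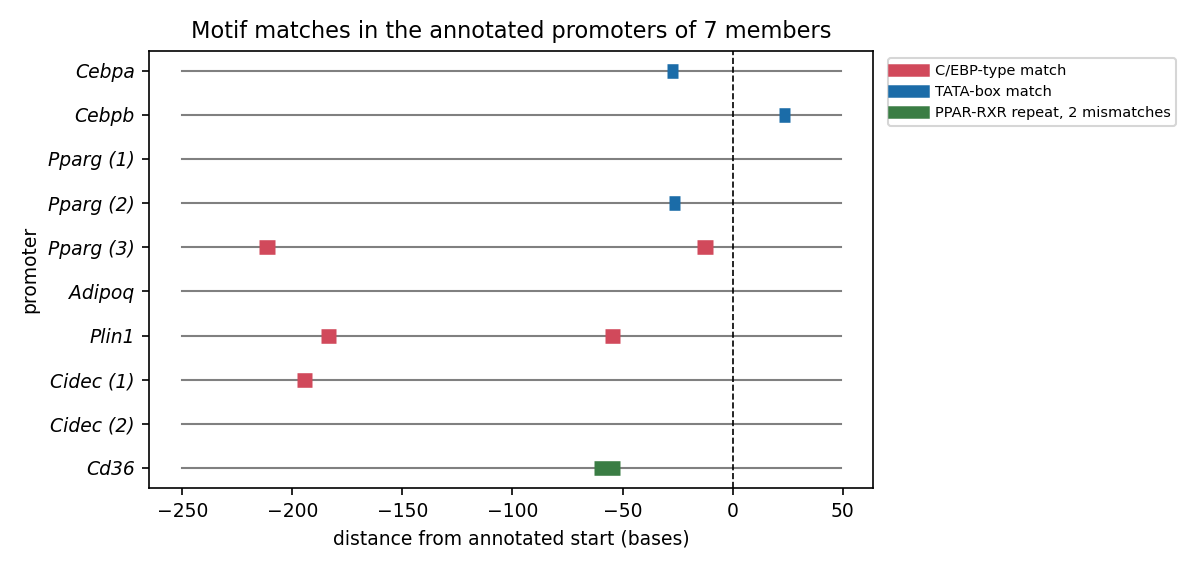
Motif matches in the 10 listed promoters of 7 members, as the distance in bases from the annotated start (x axis, with the start as a dashed line). Each horizontal line is 1 promoter and each block 1 match on either strand. The Adipoq line is empty, while Plin1 and the third Pparg start each carry a pair of C/EBP-type matches.

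Expression was called from a median above 1 TPM over the 4 mice. By this cutoff 6 of the 10 members were expressed, against 22.9% of the 52125 genes with a length and 44.2% of the protein-coding genes, the class to which all 10 belong. The 6 were Adipoq, Lpl, Cebpa, Cebpb, Cebpd and Cd36, so 5 of the 6 early members passed and 1 of the 4 mature members did. Adipoq, Lpl, Cebpb and Cebpd were above 1 TPM in every mouse, a standard met by 15.4% of all genes with a length. The share of protein-coding genes that meet this standard was not computed. Plin1 and Cidec had 0 counts in every mouse. The same held for 51.0% of the genes with a length and for 29.4% of the protein-coding genes. A share of 2 in 10 does not set the members apart from their class. Cd36 was no longer expressed by the cutoff when mouse 1 or mouse 4 was left out, and Pparg joined the expressed members when the mean replaced the median.

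**Figure D2:**
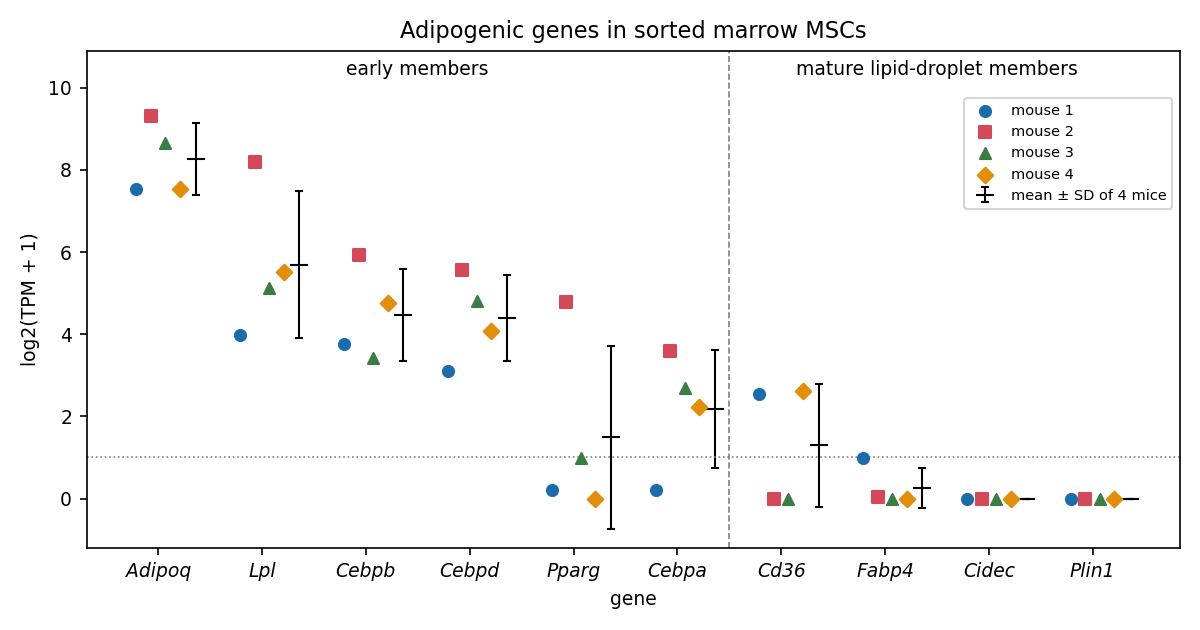
Level of each member in each mouse as log2(TPM + 1) (y axis), with the early members left of the dashed line. Points are the 4 mice, crosses with bars are the mean ± SD of these log values, and the dotted line marks 1 TPM. Adipoq lies highest, every early member is highest in mouse 2, and Plin1 and Cidec lie at 0 in all 4 mice.

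Of the early transcription factors, Cebpb (ENSMUSG00000056501, a gene of 1 exon at chr2:167688915-167690418 on the plus strand of GRCm38) had 330, 997, 254 and 409 counts in mice 1, 2, 3 and 4. These correspond to 12.5, 59.6, 9.77 and 26.3 TPM. Mouse 2 was the highest and mouse 3 the lowest, 6.10-fold apart. Cebpd (ENSMUSG00000071637, 1 exon, chr16:15887286-15891031, plus strand), the partner of Cebpb at the onset of the cascade, had 501, 1945, 1763 and 615 counts. Its levels were 7.60, 46.7, 27.2 and 15.9 TPM, with mouse 2 highest and mouse 1 lowest. On average, Cebpb reached 27.0 ± 22.9 TPM and Cebpd 24.3 ± 16.9 TPM (mean ± SD, n = 4 mice). Without mouse 2 the mean of Cebpb was 16.2 TPM and that of Cebpd 16.9 TPM. The order of the pair differed between mice, since Cebpb was the higher in mice 1, 2 and 4 and Cebpd in mouse 3. Before the sort, the femurs went through a warm digestion. Genes that rise when tissue is dissociated summed to 1845, 3206, 4462 and 1760 TPM in mice 1 to 4. The part of dissociation in the levels of Cebpb and Cebpd was not tested.

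Both genes share exonic bases with a gene on the opposite strand, and the counting parameters that are given include no strand option. Cebpb shares 20.7% of its bases with Tmem189, which had 790, 45, 982 and 93 counts in mice 1 to 4, and Cebpd shares 15.0% with Spidr, which had 904, 964, 754 and 193 counts. By the default of the counting tool, read pairs that lie wholly on such shared bases are assigned to neither gene. Pairs that reach the shared bases only in part can be lost as well. Both levels are therefore uncertain by an amount that was not measured.

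Cebpa (ENSMUSG00000034957, 1 exon, chr7:35119293-35121928, plus strand), which acts after Cebpb and Cebpd, had 7, 324, 251 and 100 counts. Its levels were 0.151, 11.0, 5.51 and 3.67 TPM, or 5.10 ± 4.55 TPM (SD, n = 4) and 3.11 TPM without mouse 2. Mouse 1 stood below the other 3, and mouse 2 was 73.2-fold above it. Cebpa shares 1.94% of its bases with the antisense gene Gm45091, which had 0 counts in mice 1 and 2 and 40 and 107 in mice 3 and 4.

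Pparg (ENSMUSG00000000440, chr6:115360951-115490399, plus strand), the central regulator of fat-cell differentiation, had 8, 869, 50 and 0 counts. Its levels were 0.154, 26.5, 0.980 and 0 TPM, and 3 counts would have been 0.0983 TPM in mouse 4. Only mouse 2 was above 1 TPM. The median of 0.567 TPM missed the cutoff, and the mean of 6.90 ± 13.04 TPM (SD, n = 4) fell to 0.378 TPM without mouse 2. Floors of this kind cover counting error only, since amplified copies of 1 cDNA are not independent molecules.

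Lpl (ENSMUSG00000015568, chr8:68880491-68907448, plus strand) encodes the enzyme that releases fatty acids from lipoprotein triglycerides. Mice 1 to 4 had 2704, 33780, 6144 and 4815 counts, which give 14.7, 289.8, 33.9 and 44.5 TPM. Mouse 2 was 19.8-fold above mouse 1 and stood far above the other 3 as well. The mean of 95.7 ± 130 TPM (SD, n = 4) was 31.0 TPM without mouse 2. Near-identical copies of 244 bases, 5.93% of the longest Lpl transcript, occur in 44 other annotated genes.

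Adipoq (ENSMUSG00000022878, chr16:23146536-23158028, plus strand), which encodes adiponectin, had 4477, 9756, 9518 and 2646 counts. Its levels were 184, 635, 399 and 185 TPM, or 351 ± 215 TPM (SD, n = 4). Mice 1 and 4 were alike within counting error, and mice 2 and 3 were above both. By its median, Adipoq ranked 370 among the genes with a length, above 99.3% of them. No other annotated gene shares its exons or a near-identical stretch.

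Among the mature members, Plin1 (ENSMUSG00000030546, chr7:79720218-79732903, minus strand) and Cidec (ENSMUSG00000030278, chr6:113424634-113435760, minus strand) had no count in any mouse. For Plin1 a count of 3 would have been between 0.0367 and 0.0624 TPM, depending on the library, and for Cidec between 0.0919 and 0.156 TPM. In the annotation used, neither gene shares exonic bases with another gene. A near-identical copy of 132 bases, 4.69% of the longest Plin1 transcript, occurs in 1 other annotated gene, while Cidec has no such copy.

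Fabp4 (ENSMUSG00000062515, chr3:10204088-10208576, minus strand), the cytosolic fatty-acid carrier, had 77 counts in mouse 1, 1 count in mouse 2 and 0 in mice 3 and 4. The level in mouse 1 was 0.975 TPM, just under the cutoff, and that in mouse 2 was 0.0200 TPM. With the length of its principal transcript of 896 bases in place of the merged 4489 bases, an alternative added after the data were seen, the level in mouse 1 became 3.42 TPM.

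Cd36 (ENSMUSG00000002944, chr5:17781690-17888801, minus strand), the fatty-acid translocase, was counted in some libraries and not at all in others. Mice 1 and 4 had 304 and 192 Cd36 counts, or 4.81 and 5.18 TPM, and mice 2 and 3 had 0. A level in 2 of 4 mice lifted its median to 2.41 TPM. Of the 11948 genes past the cutoff, 10118 had counts in every mouse, and Cd36 was not among them.

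CD36 and FABP4 are also made by cells other than fat cells, among them endothelial cells and macrophages, and CD36 by platelets. The summed endothelial markers were 0.119, 1.28, 0.0465 and 1.10 TPM in mice 1, 2, 3 and 4, with 0 of the 5 past the cutoff. Macrophage markers summed to 0.497, 0, 15.99 and 0.385 TPM, again with 0 of 5 past the cutoff. The sum in mouse 3, where Cd36 and Fabp4 were both at 0, came from C1qb and Cd68. Megakaryocyte and platelet markers summed to 7.95 TPM in mouse 1, nearly all of it 122 counts of Gp9, to 0.267 TPM in mouse 3 and to 0 in mice 2 and 4. The erythroid sum was also highest in mouse 1, which held the highest Fabp4 level. Ptprc, which encodes the excluded antigen CD45, had 2, 2, 0 and 50 counts in mice 1 to 4. Of the neutrophil markers, S100a8 had 142, 0, 4 and 56 counts, whereas S100a9 had 36, 114, 26 and 0. The part of blood-cell RNA in the Cd36 and Fabp4 counts was not tested. The brown-fat list of Ucp1, Cidea, Dio2 and Elovl3 had 0 counts throughout.

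Ordered by mean level per length, the members ran from Adipoq through Lpl, Cebpb, Cebpd, Pparg, Cebpa, Cd36 and Fabp4 to Plin1 and Cidec. The place of Pparg rests on mouse 2, since its median of 0.567 TPM was below that of 4.59 TPM for Cebpa. Each member's range over the 4 mice overlapped that of the next one in this order. Within a mouse, 8 pairs of members were compared on the log2(TPM + 1) scale by flipping the signs of the 4 differences in every way, an exact two-sided permutation test. Its smallest p with 4 mice is 0.125, or 0.25 after Benjamini-Hochberg adjustment over the 8 pairs, so no pair could pass a threshold of 0.05. In this permutation test any 4 differences of the same sign give p = 0.125, whatever their size or spread. The p-values describe these 4 mice only.

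Adipoq exceeded Plin1 by 8.26 ± 0.88 on this scale and was the higher in 4 of 4 mice (p = 0.125 by the exact permutation test, 0.25 adjusted). With merged exon lengths, the TPM of Adipoq stood 5024-fold, 10947.5-fold, 10680.5-fold and 2969-fold above a floor of 3 Plin1 counts in mice 1 to 4. Above the same floor for Cidec it stood 2006-fold, 4371-fold, 4264-fold and 1185-fold. These folds depend on gene length and cover counting error only, so they are no lower bounds. Against a floor of 3 Cd36 counts the fold was 8454 in mouse 2 and 8248 in mouse 3, where Cd36 had 0 counts. It was 38.3 in mouse 1 and 35.8 in mouse 4, where Cd36 was counted. Lpl exceeded Cd36 by 4.41 ± 2.94 in log2(TPM + 1), with 4 of 4 mice in this direction and the same p of 0.125 and adjusted p of 0.25 from the exact permutation test.

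Adipoq also exceeded Lpl in 4 of 4 mice, with a mean difference of 2.56 ± 1.19 in log2(TPM + 1) and p = 0.125 in the exact permutation test (0.25 adjusted). The size and the direction of this mean difference depended on gene length, and without a length, in log2(CPM + 1), it was -0.33. The merged exons of Lpl span 10478 bases and its principal transcript 4115 bases. With principal transcripts, Lpl rose to 26.2, 527, 60.9 and 80.7 TPM against 138, 484, 300.4 and 141 TPM for Adipoq, so the order of the genes turned in mouse 2 and the mean difference was 1.33.

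Within the C/EBP family, Cebpb exceeded Cebpa by 2.29 ± 1.17 in log2(TPM + 1), again in 4 of 4 mice (p = 0.125 by the exact permutation test, 0.25 adjusted). Cebpd minus Cebpb was -0.07 ± 0.99, with Cebpd higher in 1 of 4 mice (exact permutation p = 1, adjusted p = 1). Pparg minus Cebpa was -0.69 ± 1.57, with each gene the higher in 2 of 4 mice (exact permutation p = 0.5, adjusted p = 0.667). For the last pairs the SD between mice exceeded the mean difference. Fabp4 minus Plin1 was 0.25 ± 0.49 (exact permutation p = 0.5, adjusted p = 0.667), and Cidec and Plin1 could not be compared, as both were at 0.

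Summed by role, the early members reached 219, 1069, 476 and 276 TPM in mice 1 to 4. The mature members reached 5.79, 0.0200, 0 and 5.18 TPM. In every mouse the early sum was the larger, by 37.9-fold in mouse 1 and 53.3-fold in mouse 4. In mouse 3, where the mature members had no count, it was 5092-fold above a floor of 3 counts on the shortest mature gene. That fold covers counting error only and is no lower bound. The mature sum of mouse 2 rests on 1 count, against 47671 counts of early members, and no fold is given for it. Adipoq and Lpl together made up between 83.4% and 90.9% of the early sum, and Cd36 made up 83.2% of the mature sum in mouse 1 and all of it in mouse 4. With principal transcript lengths, Cd36 and Fabp4 were close in mouse 1, at 3.56 and 3.42 TPM. The lowest fold of early over mature members was then 25.6, against 37.9.

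The early members also shared a pattern over the mice. The mature members could hardly show a shared pattern, since Plin1 and Cidec had no count and Fabp4 had 77, 1, 0 and 0 counts. Cd36 had 304, 0, 0 and 192 counts in mice 1 to 4. The 5 early members past the cutoff were all highest in mouse 2, whereas 26.1% of the genes past the cutoff were highest there. Pparg, which missed the cutoff, was highest in mouse 2 as well. All 6 were highest in mouse 2 also with TMM factors, with a common upper quartile and with the 10 highest genes left out of the scaling. Mouse 2 was also highest for each of the 6 niche genes, had the lowest erythroid sum and had the fewest genes with a count. It was not the deepest library, with 26050230 counts. The part of sample composition in this pattern was not tested.

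Cebpa, Cebpd and Adipoq shared 1 order, with mouse 2 highest, then mice 3, 4 and 1. Of the genes past the cutoff 5.06% had this order, with Cxcl12 and Kitl among them. Cebpb departed from it in mouse 3, its lowest mouse, and Lpl in mouse 4, which came second.

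**Figure D3:**
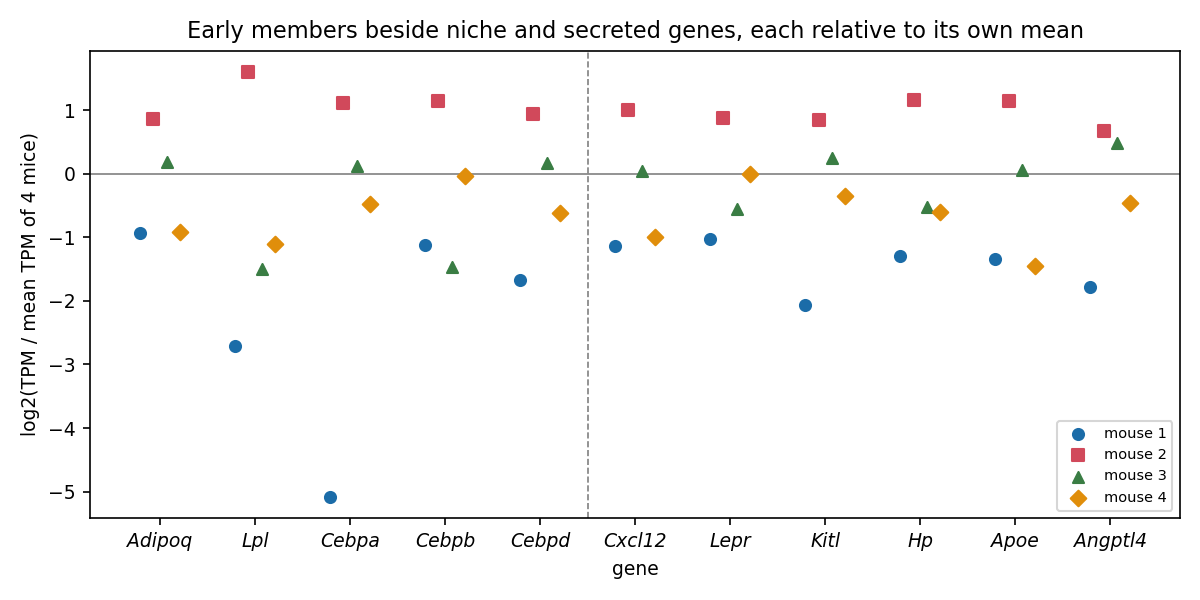
Level of 5 early members (left of the dashed line) and of 6 niche or secreted genes in each mouse, as log2 of TPM over the mean TPM of the same gene (y axis). Points are the 4 mice, and Pparg is left out because it was at 0 in mouse 4. All 11 genes are highest in mouse 2, the points of Adipoq and Cxcl12 are spaced alike, and Cebpa in mouse 1 lies lowest.

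A ratio within 1 library is free of scaling between libraries. Relative to Cxcl12, the chemokine that marks reticular niche cells, the TPM of Adipoq was 18.7%, 14.7%, 17.9% and 17.2% in mice 1, 2, 3 and 4. The log2 ratio had an SD of 0.15 over the 4 mice, although Cxcl12 itself ran from 983 to 4329 TPM. An SD as small or smaller was found in 6 of 10118 genes past the cutoff with counts in every mouse, or 0.0593%, Adipoq included. This comparison with Cxcl12 was known from earlier results of these data and gets no test.

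The other early members followed Cxcl12 less closely by the same measure. Cebpd stood at 0.773%, 1.08%, 1.22% and 1.47% of Cxcl12, with an SD of 0.39 in log2. Lpl stood at 1.49%, 6.69%, 1.53% and 4.12%, with mice 2 and 4 apart from mice 1 and 3 and an SD of 1.08. The SD was 1.03 for Cebpb and 2.10 for Cebpa, and the ratio of Cebpa was between 0.248% and 0.340% in mice 2, 3 and 4 but 0.0154% in mouse 1. For comparison, the SD was 0.66 for Lepr, which marks the same reticular cells, and 0.26 for Apoe.

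The pattern of Adipoq over the mice was compared with that of 11947 other genes past the cutoff by the root-mean-square difference of log2(TPM + 1), each gene centred on its own mean over the 4 mice. The 5 nearest genes were Gadd45b, a stress-response gene, at 0.07, Dhx34 at 0.08, Emp1 at 0.08, Cadps2 at 0.08 and Zmynd8 at 0.09. Gadd45b had 94.6, 315, 224 and 97.8 TPM in mice 1 to 4. Adding 1 TPM narrows the fold differences of genes at low level. Cadps2 had 0.297, 4.11, 1.81 and 0.415 TPM, a wider fold range than the 3.45-fold of Adipoq. Cxcl12 ranked 17 by this measure, at 0.13. Among the members, Cebpd came nearest at rank 349, followed by Cebpa at 3625, Cebpb at 5645 and Lpl at 7103. With 4 mice in 1 group, such likeness describes these libraries only.

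The spread of the members was set beside that of genes of like level. The coefficient of variation between mice was 61.2% for Adipoq, where genes with a mean from 100 to 1000 TPM had a median of 23.5%. It was 69.5% for Cebpd, 84.6% for Cebpb and 136% for Lpl, against a median of 42.4% for genes from 10 to 100 TPM. For Cebpa it was 89.3%, close to the median of 89.6% for genes from 1 to 10 TPM, and for Pparg and Cd36, in the same range, it was 189% and 116%. Fabp4, with a mean under 1 TPM, had 195%. Counting error alone corresponds to between 0.929% for Lpl and 9.30% for Cd36, and to 22.7% for Fabp4.

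Beyond the 10 members, 85 further genes of adipogenesis and fat metabolism in 8 lists were examined, and 52 of them were past the cutoff, against 22.9% of all genes with a length and 44.2% of the protein-coding genes. Their median level was 2.96 TPM against 0 for all genes with a length. A level above 1 TPM in each of the 4 mice was found for 31 of the 85, against 15.4% of all genes with a length. A count of 0 throughout was found for 12 of the 85, against 51.0% of all genes with a length and 29.4% of the protein-coding genes.

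Of 21 other C/EBP and adipogenic regulators, 15 passed. The highest was Klf4, an inducer of Cebpb, with 57.1, 49.4, 67.0 and 25.7 TPM in mice 1 to 4. Ddit3, the dominant-negative C/EBP protein CHOP, reached 31.5 ± 19.5 TPM, and Ebf1, a factor of adipocyte and reticular cells, reached 17.3 ± 9.49 TPM (SD, n = 4 for each). Rxra, the DNA-binding partner of PPARg, had 4.69, 1.53, 7.47 and 5.32 TPM and was thus lowest in mouse 2, where Pparg was highest. Cebpe, the granulocyte member of the family, and Ppargc1a, a coactivator of PPARg, had no count. Of 10 genes that restrain adipogenesis 6 passed, led by Klf2 with 59.3 ± 11.0 TPM, while Dlk1, the preadipocyte factor, had 4 counts in mouse 4 and none elsewhere.

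Among 16 genes of triglyceride synthesis and the droplet coat, 8 passed. The droplet proteins found in most cell types were counted in every mouse, with 17.0, 3.07, 19.99 and 23.5 TPM for Plin2 and 29.5, 52.8, 40.3 and 23.8 TPM for Plin3. Plin4, Plin5 and Cidea, relatives of Plin1 and Cidec, had 0 counts in every mouse. Dgat2, which makes triglyceride, had 34 counts in mouse 1 and none in the others, whereas Dgat1 had 4, 340, 899 and 279 counts. Bscl2 (seipin) and Cavin1 varied little, at 41.4 ± 4.93 and 19.4 ± 1.18 TPM (SD, n = 4 for each).

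Of 8 lipolysis genes 5 passed. Mgll, the monoglyceride lipase, had the highest median of the list, with 26.4, 21.9, 49.7 and 24.3 TPM. Pnpla2, the first lipase of the droplet, was highest in mouse 1, at 46.0, 2.11, 9.72 and 9.48 TPM, and its inhibitor G0s2 was highest in mouse 2, at 1.70, 78.0, 36.6 and 0 TPM. Lipe, hormone-sensitive lipase, had 250, 0, 0 and 155 counts, so it was counted in the same mice as Cd36. The share of all genes counted in those mice only was not computed. Adrb3, the receptor through which adrenaline drives lipolysis in fat cells, had no count.

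Of 8 adipokines and secreted products 3 passed, namely Hp, Angptl4 and Rbp4. Hp (haptoglobin) had 727, 3973, 1233 and 1175 TPM and Angptl4, an inhibitor of lipoprotein lipase, 47.7, 261, 229 and 119.6 TPM. Both had the order of mice of Adipoq. Rbp4 went the other way, with 333, 0, 67.0 and 16.6 TPM. Leptin (Lep) and adipsin (Cfd), products of mature fat cells, had no count in any mouse.

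Of 10 partners of lipoprotein lipase 6 passed, each of them above 1 TPM in every mouse. Apoe had 556, 3102, 1460 and 516 TPM, the highest of the list. The endothelial anchor Gpihbp1, the inhibitor Angptl8 and the activator Apoc2 had 0 counts. Of 7 genes of fatty-acid uptake and binding 5 passed, and Fabp3, a relative of Fabp4, had 79.7 ± 30.0 TPM (SD, n = 4), while Fabp1, the liver form, had no count and the insulin-responsive glucose carrier Slc2a4 had 8, 0, 0 and 1 counts. Of 6 genes of adiponectin reception and secretion 5 passed. Adipor1 had 123, 59.6, 53.7 and 23.3 TPM and Adipor2 3.82, 13.1, 4.67 and 7.59 TPM. Erp44, which retains adiponectin oligomers in the secretory pathway, had 101 ± 25.1 TPM (SD, n = 4), and Cdh13, a surface receptor of adiponectin, had 297 counts in mouse 2 and none in the others.

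**Figure D4:**
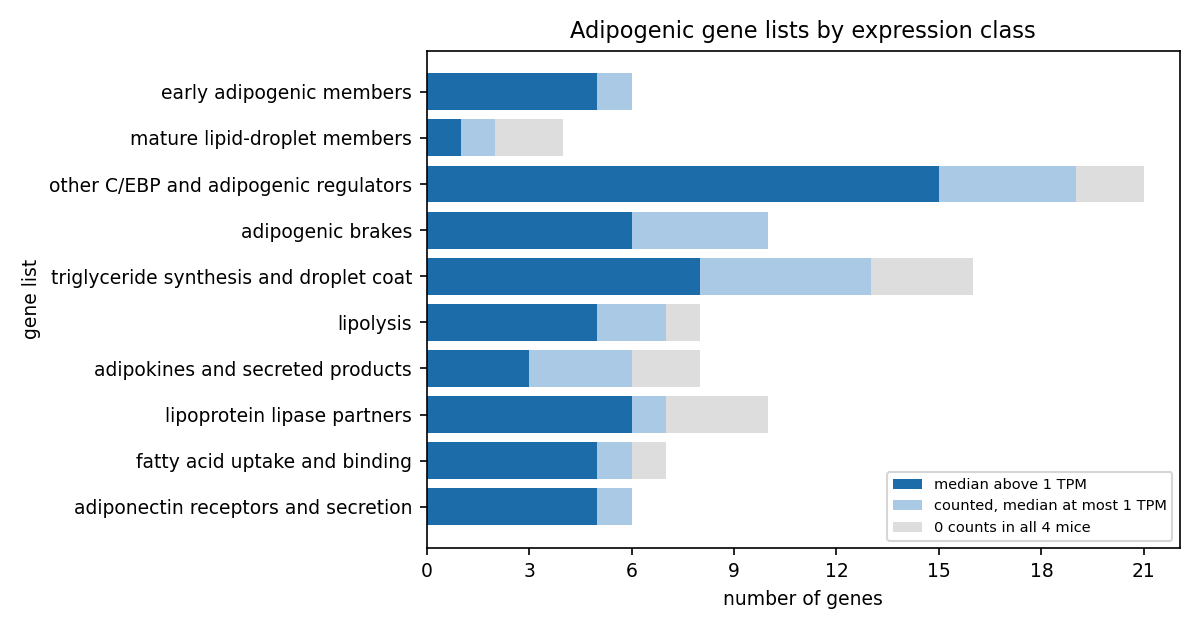
Number of genes (x axis) in each adipogenic gene list (y axis) by expression class. Dark bars are genes with a median above 1 TPM over 4 mice, light bars are genes with counts but a lower median, and grey bars are genes with 0 counts in all 4 mice. The early members pass in 5 of 6 cases and the mature members in 1 of 4, and 12 of the 85 other genes have no count.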

How the data were processed

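MSCs of 4 mice were profiled by RNA-seq. According to the submitters' processing notes and the study's methods, the authors aligned read pairs with STAR 2.7.10 to GRCm39, requiring 40% of bases to align, and counted uniquely mapped pairs on Ensembl 108 exons with featureCounts of Subread 1.6.5. The deposited values are raw counts, 1 column a mouse. Levels in TPM were derived from them with pandas 2.3.3, numpy 2.4.6 and scipy 1.17.1 under Python 3.11.15. Merged exon lengths came from GENCODE M21 on GRCm38, so the TPM of a gene whose exons changed between releases is scaled by that change. Coordinates stay in GRCm38. No TPM was formed for 4855 genes that lack a length there. TMM factors came from edgeR 4.0.16 in R 4.3.3, and copies from BLAST 2.17.0 (95% identity, 100 bases). The TPM code was tested on simulated data. A count of 3 was taken as the floor, which is between 0.0689 and 0.132 CPM, the count scaled to a library of 1000000. Promoters are RefSeq entries of GRCm38.p6.

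The members, gene lists and pairs were chosen with earlier results of these data known. All 10 members were named, and of each list the genes with the highest and lowest medians, beside others chosen after their values were seen. Nearest genes to Adipoq were the first 5 by distance. Alternatives were other gene lengths, denominators, scalings, cutoffs, a pseudocount of 0.1 in place of 1, and leaving out each mouse. No column of values was left unused.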

Additional observations from a re-analysis of the deposited data

Results flagged for a closer look

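For 33 values that differed between the 4 mice, the gap between the highest or lowest mouse and its nearest neighbour was divided by the whole range, and 7 exceeded Dixon's 95% critical value for 4 samples. That critical value flags about 1 in 20 by chance only for normally distributed values, and several of these were strongly skewed. Several also share genes and are not independent, so the 7 flags cannot be set against a chance rate. Mouse 2 stood apart in 4 of the 7, with a gap of 0.963 of the range for the TPM of Pparg, 0.892 for the TPM of Lpl, 0.928 for Pparg relative to Cxcl12, and 0.865 for the summed TPM of the adipokine list, most of which is Hp. Mouse 1 stood apart for the TPM of Fabp4, with a gap of 0.979, and for the summed megakaryocyte and platelet markers, with a gap of 0.966. Mouse 3 stood apart for the summed macrophage markers, with a gap of 0.969, from C1qb and Cd68. The causes were not tested.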

How the results depend on the processing

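The direction of a result turned in the following cases. Without a gene length, in log2(CPM + 1), Adipoq minus Lpl was -0.33 and Cebpd minus Cebpb was 1.16. When each mouse was left out in turn, Cebpd minus Cebpb lay between -0.56 (without mouse 3) and 0.13 (without mouse 4), so this difference, small from the start, has no stable sign. The other pair differences kept their direction under every alternative run, with Adipoq minus Plin1 between 7.48 and 11.6, Lpl minus Cd36 between 3.15 and 6.25, Cebpb minus Cebpa between 1.57 and 2.92 and Pparg minus Cebpa between -1.59 and -0.18. Their p-values could not pass a threshold with 4 mice and say nothing of stability. The number of expressed members was between 4 and 7, and 4 (Adipoq, Lpl, Cebpb and Cebpd) were left when a level above 1 TPM or at least 10 counts was asked of every mouse, or a median above 5 TPM. The lowest log2 ratio of the early sum over the mature sum was 5.24. Under the alternatives it was between 4.40 (without a gene length) and 5.74 (without mouse 1). A different measure, the difference between the groups in mean log2(TPM + 1), had a lowest value of 2.25. Without a mouse, the mean of Lpl lay between 31.0 and 123 TPM and that of Pparg between 0.378 and 9.20 TPM. The labels give 1 group, so no paired analysis between groups was possible. With 100 cells in each library, genes counted well in some mice and at 0 in others, such as Cd36, limit what a median over 4 mice can show.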

Other observations

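Genes with a ratio to Cxcl12 at least as constant over the mice as that of Adipoq were listed after their values were seen. Bmp6, a bone morphogenetic protein, had the most constant ratio, with an SD of 0.06 in log2 and 6.16, 28.1, 14.3 and 7.42 TPM in mice 1, 2, 3 and 4. Tmem209 followed at 0.09, Dyrk1a at 0.12, and Fbn1, the microfibril protein fibrillin 1, and Isyna1 at 0.15 each. The immediate-early and heat-shock genes that rise when tissue is dissociated summed to 1845, 3206, 4462 and 1760 TPM in mice 1 to 4. The sum was highest in mouse 3, and all 7 of these genes were past the cutoff. Whether dissociation also raised Cebpb, Cebpd, Klf4 or Klf2 was not tested. Neutrophil genes summed to 39.6, 19.6, 5.96 and 7.81 TPM, with 261 counts of Elane in mouse 1 and none elsewhere.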
